A study of Drosophila melanogaster with 4 samples.

Results

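The decapentaplegic (dpp) locus was examined for Myb occupancy by chromatin immunoprecipitation followed by hybridization to tiled arrays (ChIP-chip) in Drosophila wing imaginal discs. The chromatin came from discs of male yw67 3rd instar larvae, and every array held this 1 condition, so no mutant or other control genotype was compared. Myb immunoprecipitate (IP, Cy5) and input chromatin (Cy3) were hybridized together on 4 arrays, made up of 2 biological replicates on each of 2 array designs. The dyes were not swapped. Only array design 1 carries chromosome arm 2L. The locus was taken as every genome probe of this design at chr2L:2415000-2495000 (dm3), which gave 1056 probes of 50 bp of the 935600 on the design and of 1870562 in the series. Of these, 1054 were measured in both replicates, with a median step of 66 bp between probe starts. Whole discs were used, so the cells within the disc that carried a signal cannot be told apart.

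dpp encodes a bone morphogenetic protein (BMP) ligand that spreads from a stripe of cells along the middle of the wing disc and sets the growth and pattern of the wing. It signals through the type I receptors Thickveins (tkv) and Saxophone (sax) and the transcription factor Mad. Its regulation is unusually long-range, since the enhancers that drive it in imaginal discs lie beyond the 3′ end of the transcribed region, in a stretch that leads to the neighbouring genes Slh and out at first (oaf). Myb is a DNA-binding member of the Drosophila Myb-MuvB complex, which is best known for its role at cell cycle genes.

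The locus was read as 3 intervals set by the approximate ends of dpp, chr2L:2428372-2459823, with the upstream interval on the lower-coordinate side (175 probes measured in both replicates), the gene itself (414 probes) and the downstream interval with the disc enhancers and Slh and oaf (465 probes). These ends are the same numbers as in the gene list of a later assembly, whereas the probes are placed on dm3, so all 3 intervals are approximate to an extent not measured here. The positions of single enhancers and exons were not used. In the gene order of a later assembly, 2 tRNA genes and 1 long non-coding RNA gene lie between dpp and Slh, and no protein-coding gene does. All values are the log2 ratio of IP over input, with 0 set at each array's median over its genome probes. Input intensity in the locus had a median of 937 in replicate 1 and 819 in replicate 2, against 1132 and 994 over the probes of arms 2L, 2R and 3L. In the locus, 1 probe was saturated in each replicate.

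Mean Myb signal was lowest upstream of dpp and highest downstream of it, without a steady rise along the locus. Downstream of dpp the ratio averaged 0.34 and 0.35 in the 2 replicates (mean 0.35 ± 0.01, SD, n = 2). The gene itself averaged 0.10 and 0.29 (mean 0.20 ± 0.14), and the upstream interval −0.12 and 0.04 (mean −0.04 ± 0.11), replicate 1 first. The order of the 3 means was the same in both replicates, but the place of the downstream interval above dpp rested in replicate 2 on the longest bound region at its far end. Without that region, left out after seeing the data, the other 408 downstream probes averaged 0.27 and 0.26, against 0.10 and 0.29 in dpp. The downstream interval exceeded the upstream one by 0.46 and 0.31 in replicates 1 and 2, and exceeded the gene by 0.24 and 0.06, a mean difference of 0.15 ± 0.13. With 2 replicates, an exact two-sided permutation of signs cannot go below p = 0.5, so none of these differences could pass a test. The order upstream, within and downstream of dpp was found in 21 of 21 combinations of replicate (1, 2 or their mean) and setting of the probe values, each with that region included. All of them reuse the same 2 replicates, so the count adds no independent evidence. In steps of 10 kb from the lower-coordinate end of dpp, the mean of the replicates was 0.41 from 20 to 30 kb, 0.15 from 30 to 40 kb and 0.30 in each of the next 2 steps, and it was 0.70 beyond 60 kb.

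**Figure D1:**
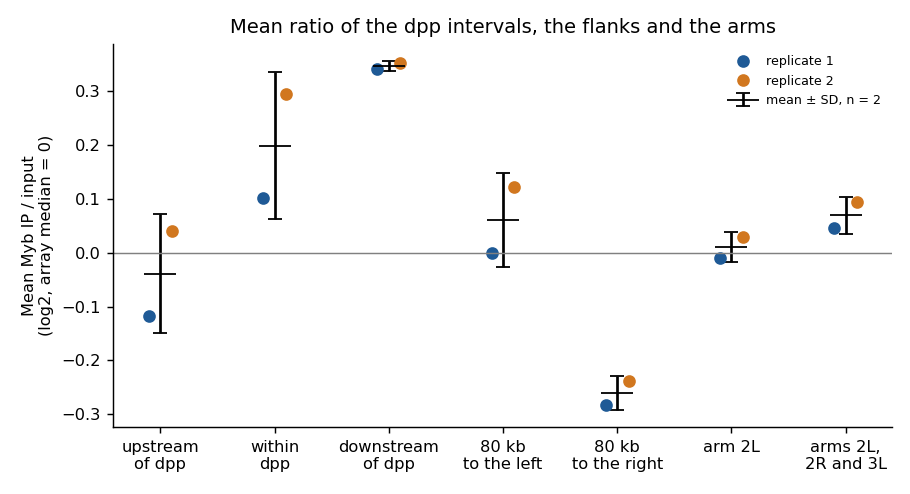
Mean log2 ratio of Myb IP over input (vertical axis, 0 at the array median) in the 3 intervals of the dpp locus, in the 80 kb on either side, and over the arms. Points are the 2 replicates and the bar is their mean ± SD; the downstream interval sits at 0.34 and 0.35, and the 80 kb to the right sits at −0.28 and −0.24.

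The locus stood above its surroundings as a whole. It averaged 0.17 in replicate 1 and 0.28 in replicate 2 (mean 0.22 ± 0.08), against −0.01 and 0.03 over arm 2L and 0.04 and 0.09 over arms 2L, 2R and 3L. The 80 kb to its left averaged −0.00052 and 0.12, and the 80 kb to its right −0.28 and −0.24. The difference from the right flank was 0.45 and 0.51, and that from the left flank was 0.17 and 0.16. Signal was therefore lower beyond the end of the locus that carries Slh and oaf in both replicates. The upstream interval by itself averaged −0.12 and 0.04, below the left flank in both replicates.

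The locus was not extreme among stretches of the same length. When the arms were cut into 858 tiles of 80 kb with the locus as 1 of them, 30.9% of the tiles had a higher mean, and of the 287 tiles of arm 2L, 22.6% did. The tiles of the 3 arms ran from −0.55 to 0.64, with a median of 0.08. These shares are descriptions and not a test.

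**Figure D2:**
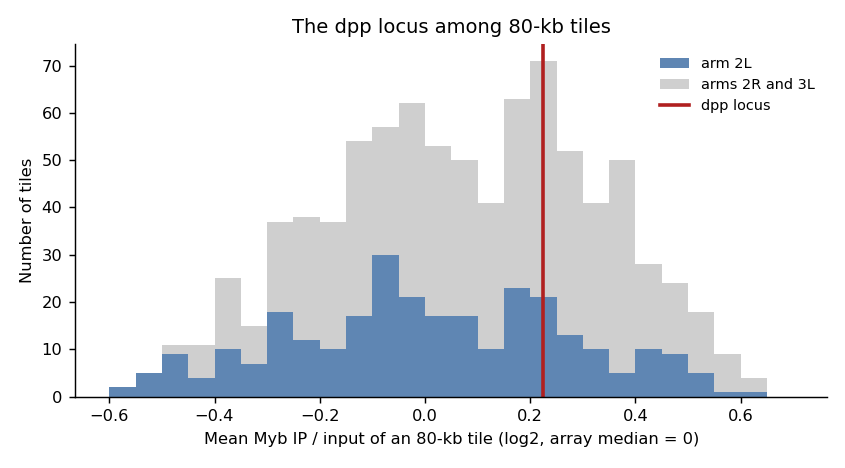
Distribution of the mean log2 ratio of Myb IP over input (horizontal axis, both replicates averaged) of 80-kb tiles, as numbers of tiles, with arm 2L and arms 2R and 3L stacked. The line marks the dpp locus at 0.22, with 30.9% of all tiles above it.

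To find where along the locus the signal lay, the probes were averaged in bins of 1 kb, and each bin was tested against 0 with limma and Benjamini-Hochberg adjustment over all bins of the 3 arms. Of the 80 bins of the locus, 21 (26.25%) were enriched at an adjusted p below 0.05, against 24.8% of all bins tested. The share of enriched bins was thus near the background. Depleted bins numbered 2 (2.5%), against 17.5% of all bins tested. The median 80-kb tile held 8 depleted bins, and 26.3% of the 858 tiles held no more of them than the locus. By single probes, 168 of 1054 (15.9%) were enriched, against 12.8% of all probes, and 23 (2.18%) were depleted, against 6.81%. The difference between these shares was not tested. A prior fitted by maximum likelihood, chosen after seeing the data, gave 127 enriched probes (12.05%, against 10.3% of all probes) and 15 depleted ones (1.42%, against 4.66%). It was added because limma made more false calls of single probes in simulated data than the threshold allows.

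The calls were unevenly placed. The downstream interval held 12 enriched bins of 35 (34.3%), dpp held 8 of 32 (25%) and the upstream interval held 1 of 13 (7.69%). Both depleted bins lay upstream, where they made up 15.4% of the bins. Of all bins tested, 24.8% were enriched and 17.5% depleted. The enriched share within dpp and the depleted share upstream were thus near the background. Bins above 0 in both replicates numbered 31 of 35 downstream, 18 of 32 within dpp and 5 of 13 upstream. Over the 3 arms such bins made up 41.7%. The 21 enriched bins fell into 9 runs, the longest with 6 neighbouring bins at the Slh and oaf end and the next with 5 in the gene. Both ends of dpp were without a call. The bin with its lower-coordinate end had 0.01 and 0.57 (replicates 1 and 2), and the bin with its higher-coordinate end had −0.32 and −0.11.

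**Figure D3:**
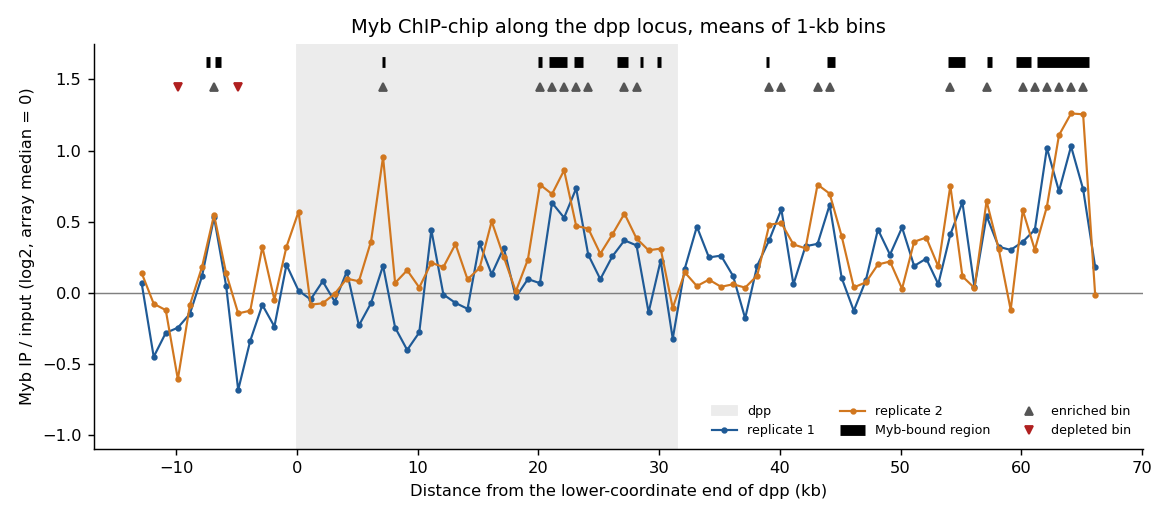
Log2 ratio of Myb IP over input (vertical axis, means of 1-kb bins) along the dpp locus, with the distance in kb from the lower-coordinate end of dpp on the horizontal axis. Lines are the 2 replicates, the grey band is dpp, and triangles mark the 21 enriched and 2 depleted bins. Black bars mark the 15 Myb-bound regions, of which 6 are centred from 20 to 30 kb, and the longest lies beyond 60 kb.

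The highest bins all lay at the far downstream end. The bin at chr2L:2492001-2493000 had 1.03 and 1.26 in replicates 1 and 2 (mean 1.15, SE 0.14, limma adjusted p = 1.41e-05). The bin next to it, at chr2L:2493001-2494000, had 0.73 and 1.26, and the bin at chr2L:2491001-2492000 had 0.71 and 1.11. All 3 were above every bin of dpp in the mean of the replicates.

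The lowest bins lay upstream of dpp. The bin at chr2L:2418001-2419000 had −0.25 and −0.61 (mean −0.43, SE 0.15), and the bin at chr2L:2423001-2424000 had −0.69 and −0.15 (mean −0.42, SE 0.15). These were the depleted bins. The next lowest, at chr2L:2416001-2417000, had −0.45 and −0.08 and did not pass the test.

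Contiguous binding was then called with the neighborhood rule, in which a region needs at least 4 significant probes no more than 300 bp apart. On the mean of both replicates, 15 Myb-bound regions were found in the locus, 6 downstream of dpp, 7 within it and 2 upstream. Their probes made up 17.5% of the measured probes of the locus, against 17.7% over the 3 arms, so the locus as a whole was close to the background by this measure. The count depended on the replicates, with 9 regions without replicate 2 and 14 without replicate 1, and 5 of the 15 regions were called in each replicate by itself. Within it the share was 24.1% downstream, 14.5% within dpp and 6.86% upstream. No region of depletion was called in the locus, where the rate over the 3 arms was 1.43 per 80 kb.

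The longest region closed the downstream side. It spanned 4281 bp at chr2L:2489718-2493998 and averaged 0.84 and 1.01 in replicates 1 and 2 over 57 probes, of which 52 were above 0 in both replicates. Like every region here, it was called on the mean of these 2 replicates, so its height and this count are descriptions only. It took up 32.0% of all bases in bound regions of the locus. Over the 3 arms, 3.51% of the 9420 regions were longer. It overlapped the only entry in the held part of the study's peak list within the locus, which that list assigns to Slh, a gene of vesicle traffic, and oaf. Over that entry the 29 probes averaged 0.90 and 1.32. The study's peaks were chosen on these arrays, so the overlap and this height are descriptions only. The held part has 1400 peaks and is not the whole list.

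Signal within this region was not even. Its highest probe had 1.92 and 2.38 in replicates 1 and 2, and its lowest had −1.16 and 0.09. The 5 remaining probes were below 0 in at least 1 replicate.

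**Figure D4:**
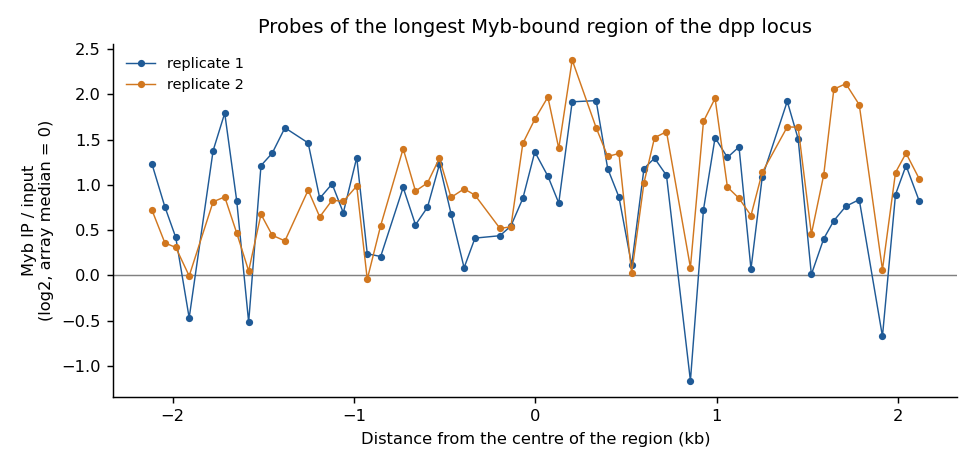
Log2 ratio of Myb IP over input (vertical axis) of the 57 probes of the longest Myb-bound region, by distance in kb from its centre (horizontal axis). Points are single probes, joined per replicate. Of the probes, 52 are above 0 in both replicates, in a region called on the mean of the replicates, and the highest reaches 1.92 and 2.38.

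The stretch between dpp and this region, which spans 29.9 kb and is where disc enhancers are known to lie, carried a lower mean signal that was close in both replicates. It averaged 0.27 in each over 395 probes, and 243 of these were above 0 in both, against 38.4% of probes over the 3 arms. Along it, 7 of the 29 bins were enriched, a share near the 24.8% of all bins tested, and the bins ran from −0.07 to 0.66. Its strongest regions by mean ratio were at chr2L:2485525-2485964, with 0.72 and 1.08 in replicates 1 and 2, at chr2L:2472315-2472952, with 0.84 and 0.93, and at chr2L:2467195-2467440, with 0.77 and 0.95. Of these, the replicates were closest at chr2L:2472315-2472952, which each of them called by itself, whereas the other 2 were called by replicate 2 alone. Each replicate by itself also called 2 longer regions, added here after their values were seen. They were chr2L:2482270-2483711, with 0.85 and 0.56, and chr2L:2487902-2489172, with 0.45 and 0.63. The last was missing where only overlaps between the calls of the replicates were kept. Whether any of them coincides with a mapped enhancer was not analysed here.

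Within dpp, the signal was higher on the 3′ side, but not at the 3′ end itself, where the bin had −0.32 and −0.11 in replicates 1 and 2. When the gene was cut at its midpoint, the higher-coordinate side averaged 0.22 and 0.40 and held 6 of the 7 regions of the gene, and the lower-coordinate side averaged −0.02 and 0.19 and held 1. From 20 to 30 kb past the lower-coordinate end, the mean was 0.32 and 0.51 in replicates 1 and 2. Of the regions there, chr2L:2456808-2457053 had 0.68 and 1.23, chr2L:2448344-2448665 had 0.75 and 1.14, and chr2L:2458196-2458503, which was the nearest to the higher-coordinate end of dpp, had 0.84 and 0.72. The last was called in neither replicate by itself, and the others in replicate 2 only. The region at chr2L:2449272-2450712 was singled out after its values were seen, because both replicates called it alone, and it had 0.74 and 0.85 over 20 probes.

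The region with the highest mean ratio in the locus was also the one on which the replicates differed most. It lies on the lower-coordinate side of dpp at chr2L:2435446-2435687 and had 0.36 in replicate 1 and 1.74 in replicate 2 over its 4 probes. Replicate 1 gave no region there by itself. Over the 4 probes of the region, the median IP intensity was 646 and 655 in replicates 1 and 2, and the median input intensity was 475 and 175. The bin that holds the region had the lowest input of the 80 bins, with a log2 input intensity of 7.48. The part of input in the ratio, and in the difference between the replicates, was not tested. Normexp background correction left no region there.

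Upstream of dpp, both regions were short. The region at chr2L:2421544-2422053, the nearest to the lower-coordinate end of dpp, had 0.64 and 0.94 in replicates 1 and 2. The region at chr2L:2420824-2421203 had 1.17 and 0.56. Each was found in only 1 replicate by itself, the first in replicate 2 and the second in replicate 1. The 5 regions of the locus not described by rank had means between 0.54 and 0.80.

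The bins of both replicates followed each other with a Pearson's r of 0.67 across the 80 bins of the locus, against 0.79 across the 67719 bins of the 3 arms. Neighbouring bins share fragments and all bins of a replicate share 1 library, so no p is given. Bins of opposite sign in the 2 replicates made up 20.0% of the locus, against 18.3% of the 3 arms. Enriched bins had a median log2 input of 9.17, against 9.89 in bins without a call, and the mean ratio ran against the input with an r of −0.43 in the locus and −0.39 over the 3 arms. Input is the denominator of the ratio, so noise in the input by itself pushes this r below 0 and lowers the input of enriched bins. The part of input in the calls was not tested.

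**Figure D5:**
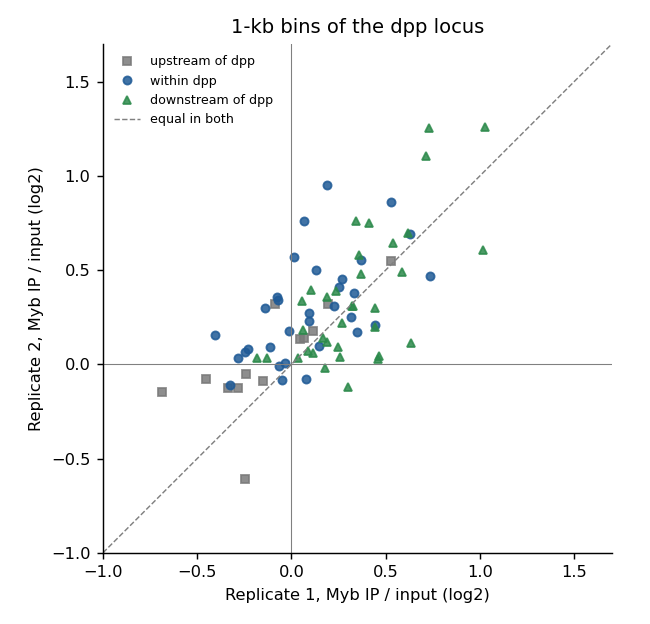
Log2 ratio of Myb IP over input of the 80 bins of 1 kb of the dpp locus, replicate 1 on the horizontal axis and replicate 2 on the vertical axis, by interval. Downstream bins lie mostly above 0 in both replicates (31 of 35), whereas upstream bins do so in 5 of 13. Over the 3 arms, 41.7% of bins do.

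Of 26 other genes of BMP signalling, 7 could be placed on the arms of design 1 from the held part of the study's tables. Those for sax, Mad, shn, dlp and sbb are at the study's own peaks, chosen on these arrays, so that their height is a description only. At the peak of the receptor gene sax the ratio was 0.90 and 1.19 in replicates 1 and 2, and at that of Mad, the transcription factor of the pathway, 1.34 and 1.52. The transcribed stretches of magu and of daw, which encodes an Activin-like ligand, were not placed by a peak. They averaged 0.16 and 0.29 for magu, with 2 of 7 bins enriched, and 0.29 and 0.18 for daw, with 0 of 3. Set against 24.8% of all bins, these counts are too small to be told from the background.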

How the data were processed

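Myb ChIP-chip was analysed in yw67 wing discs (2 biological replicates, design 1 arrays). Per the labels, discs were fixed in 1.8% formaldehyde and the chromatin was sheared to about 400 bp, which limits the resolution. The authors deposited scanner output with processed intensities, background-subtracted and dye-normalized per the file headers by Agilent Feature Extraction version 11.5.1.1. Its deposited log10 ratio is that of the same processed signals and served as a check (equal within 0.001 for 99.5% to 99.6% of spots). A deposited table of log2 ratios had medians of −1.50 and −1.09, so its centring differs in a way not stated, and it was an alternative after centring. The log2 ratio of processed Cy5 over Cy3 intensity was centred on the array median, without outlier spots, loess or quantile normalization. Probes, and bins of 1000 bp with at least 5 probes, were tested against 0 in limma 3.58.1 under R 4.3.3, the p-values being adjusted by Benjamini-Hochberg over all of design 1 or all bins at a threshold of 0.05.

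Bound regions followed the methods' neighborhood rule, with a normal null fitted to the low side of the ratios (mode −0.14, SD 0.45). On the 3 arms alone this gave 9420 regions, close to the number of peaks the paper reports for the whole genome. The calls are therefore not the same as the study's. A probe was significant if its p averaged with that of a neighbour within 1000 bp was below 0.05. The tests were checked on simulated data, where limma's probe calls held more false calls than the threshold allows, and a maximum-likelihood prior did not. Regions described by rule were the 8 highest and those nearest each end of dpp, and bins were those at its ends and the 3 highest and lowest. Other regions that both replicates called alone were added after their values were seen. The members, lists and rules were chosen with earlier results of these data known. Each replicate is 1 array of design 1, so a difference between arrays or scans cannot be told apart from one between replicates. Array number limits the precision, and no sequence was used here.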

Additional observations from a re-analysis of the deposited data

How the results depend on the processing

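Of 93 alternatives over 9 results, 73 kept the value (counts within 1.5 times, means within 1 SD). The upstream mean of −0.04, smaller than its SD of 0.11, changed sign to 0.05 when centred on the mode and to 0.04 without replicate 1 (−0.12 without replicate 2). Depleted probes numbered 41 with normexp correction, 35 with an intensity trend, and 15 each with the deposited table and the maximum-likelihood prior, against 23. Centring on the mode gave 32 enriched and 0 depleted bins (21 and 2), and means of 0.31 for the locus and 0.44 downstream. Bins of 500 bp gave 36 enriched, bins of 2 kb gave 0 depleted, and the maximum-likelihood prior gave 1 depleted bin. The 15 bound regions became 5 at a mean p-value below 0.01, 2 below 0.001, 8 with at least 6 significant probes, and 6 where each replicate was called alone and overlaps were kept. Leaving out 1 replicate gave 9 regions without replicate 2 and 14 without replicate 1. The 4281-bp region was found under all 12 of these settings. Downstream of dpp, the mean was 0.30 with normexp correction, 0.32 as a median over the probes, 0.26 without the longest bound region and 0.33 with dpp taken 1 kb shorter at each end, against a main value of 0.35 whose SD was small. The maximum-likelihood prior, the moved ends and the omission of the longest region were chosen after seeing the data. No paired analysis was possible because there is 1 condition. With 2 replicates, a spread rests on 1 difference.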
